A study of Rattus norvegicus with 15 samples.

Results

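Bpifa1 is read by a single probe set, 1384325_at (gene ID 246238, rat chromosome 3), among the 31099 probe sets and 14217 named genes of the array, and its signal was followed over all 15 arrays of a study of the rat subfornical organ. It was picked because it was the only probe set to pass the adjusted limma test between water-deprived and control rats in these data. Its differences between the groups are therefore given as a description, with no test. The study's arrays measured RNA of the subfornical organ from male Sprague Dawley rats aged 10 to 12 weeks, with 5 arrays in each of 3 groups. One group had been deprived of water, for a time not given in the sources used here. Another had been deprived of food for 48 h, and the control animals were untreated. Each array carried the pooled tissue of 5 animals, so 25 animals stand behind each group. The series design text, taken literally, has all 3 conditions go without food for 48 h, while the sample labels state this for the food-deprived samples alone.

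Bpifa1, also known as Plunc or Splunc1, encodes a secreted protein of the BPI fold family, whose members share a lipid-binding fold with the bactericidal/permeability-increasing protein. It is known as an abundant product of nasal and airway epithelium, where it acts in defence against bacteria. In human airway cells the protein also lowers the activity of the epithelial sodium channel ENaC. The subfornical organ is a sensory structure of the brain that lacks a tight blood-brain barrier and senses angiotensin II and the sodium and osmolality of blood.

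The promoter is shown because the gene's signal separated the groups, so that the letters before its start can be read beside the values. The window runs from 250 bases before to 50 bases after the start in RefSeq, assembly GRCr8, at chr3:163087715-163088014 on the plus strand. Capitals mark a match to the AP-1 motif TGANTCA and, closer to the start, a match to TATAAA.

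Bpifa1 promoter: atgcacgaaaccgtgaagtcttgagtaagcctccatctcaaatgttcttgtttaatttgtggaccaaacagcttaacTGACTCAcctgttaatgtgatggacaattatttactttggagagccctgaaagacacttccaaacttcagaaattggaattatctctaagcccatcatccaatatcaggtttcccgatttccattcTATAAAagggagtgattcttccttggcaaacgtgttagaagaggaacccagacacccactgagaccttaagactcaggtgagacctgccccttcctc

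The AP-1 match began 173 bases before the start, and 7.33% of 27457 RefSeq rat promoters of the same length hold that motif on either strand. TATAAA began 47 bases before the start, and 14.3% of promoters hold it on either strand. The motif CCAAT occurred 2 times, 101 bases before the start on the minus strand and 75 bases before it on the plus strand, and 37.7% of promoters hold it. The motif TGACG of cAMP response elements was not found in these letters, and 22.0% of promoters hold it. None of these matches overlapped another. A match describes the letters and is no evidence of binding. Of the RefSeq genes, 0 overlap Bpifa1. The sequence record that the annotation gives for the probe set is not among the 2 RefSeq transcripts of the gene.

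The Bpifa1 signal was high in all 5 water-deprived arrays and low in all 10 others. Water-deprived arrays 1 to 5 gave signals of 49.8, 66.9, 70.4, 58.2 and 62.4. Food-deprived arrays 1 to 5 gave 22.1, 26.2, 32.7, 22.3 and 18.4. Control arrays 1 to 5 gave 28.8, 23.2, 17.6, 16.3 and 27.2. These are the deposited intensities on a linear scale, on which every array has the same trimmed mean. The lowest water-deprived array, at 49.8, stood above the highest of the others, a food-deprived array at 32.7, while the food-deprived and control arrays overlapped. The means were 61.5 ± 8.01 in water-deprived, 24.4 ± 5.43 in food-deprived and 22.6 ± 5.58 in control arrays (SD, n = 5 each). In a bulk sample, a change in the number of cells that express a gene and a change in RNA per cell cannot be told apart.

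**Figure D1:**
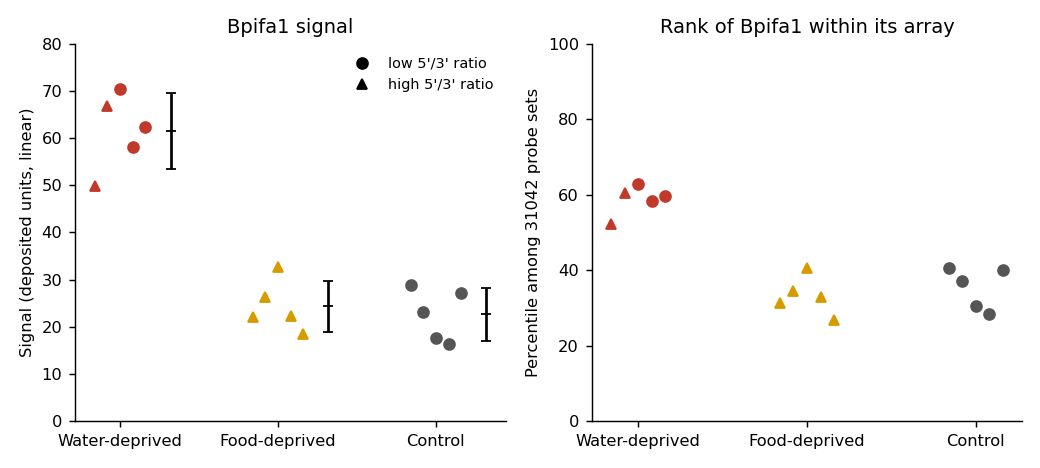
Bpifa1 signal (left, linear scale) and the percentile of that signal among all probe sets of the same array (right), by group, with 1 point per array and the mean ± SD of 5 arrays; circles are arrays with a low and triangles arrays with a high 5′/3′ control ratio. The water-deprived arrays lie between 49.8 and 70.4, and no other array exceeds 32.7.

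The rank within each array showed the same separation. Bpifa1 lay at the 52.3rd to 63.0th percentile of all probe sets of its own array in water deprivation. It lay at the 26.8th to 40.7th percentile in food deprivation and the 28.3rd to 40.6th in control. Relative to the median signal of its array, the value was 109% to 185% in water-deprived, 40.6% to 70.7% in food-deprived and 39.6% to 67.3% in control arrays. Bpifa1 was thus a mid-ranking signal in water deprivation and in the lower part of the array in the other groups. Signals of different probe sets are ranked here as signals, and their order does not give the order of transcript abundance.

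For the comparisons a constant of 16 was added to the signal before taking log2, which shrinks differences at this level. On that scale water deprivation minus control was 1.01 (SE 0.13, 95% interval 0.74 to 1.28), or 2.02-fold, with a limma adjusted p = 0.0130, the value that chose the gene. The ratio of the plain mean signals was 2.72. Of the 21729 probe sets tested, 1 (0.0046%) was higher by the adjusted limma test and 0 were lower, while 1412 had an unadjusted p under 0.05. Bpifa1 had the smallest p of all, and 12 probe sets had a larger increase. Complete separation of 5 water-deprived from 5 control arrays was itself less rare, with 81 probe sets (0.373%) entirely above and 80 (0.368%) entirely below.

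Water deprivation minus food deprivation gave 0.95 on the same scale (SE 0.13, 95% interval 0.68 to 1.21), or 1.93-fold, and the mean signals had a ratio of 2.53. In this comparison 29 probe sets (0.133%) were higher and 4 (0.0184%) lower by limma, and 320 (1.47%) had all 5 water-deprived arrays above all 5 food-deprived ones. Both comparisons use the same 5 water-deprived arrays, so the second value does not stand apart from the first. Food deprivation minus control was 0.07 (SE 0.13, 95% interval -0.20 to 0.33), and 1 of the 5 food-deprived arrays exceeded the highest control. In that comparison 9.84% of the probe sets tested had all 5 food-deprived arrays above, and 5.61% all 5 below, the 5 controls. The order of the levels was water deprivation, food deprivation and control, of which the last 2 did not differ beyond the spread of their arrays.

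The array's Actb and Gapdh controls, which probe either end of these transcripts, split the arrays by the signal at the 5′ end over that at the 3′ end, a split found in the values and absent from the labels. The ratio is high (mean log2 -0.86 to -0.71) in the 5 food-deprived arrays and in arrays 1 and 2 of water deprivation. It is low (-2.81 to -1.24) in the 5 controls and in arrays 3 to 5 of water deprivation. Bpifa1 was high in both kinds of water-deprived array. The 2 high-ratio water-deprived arrays gave 49.8 and 66.9, against 18.4 to 32.7 in the food-deprived arrays of that kind. The 3 low-ratio ones gave 58.2 to 70.4, against 16.3 to 28.8 in the low-ratio controls. With the array set as a term in the limma fit, the log2 difference was 1.05 (SE 0.14) from control and 0.88 (SE 0.17) from food deprivation. Because controls are all low-ratio and food-deprived arrays all high-ratio, the first value rests on water-deprived arrays 3 to 5. The second rests on water-deprived arrays 1 and 2 alone. In that fit limma called 6 probe sets (0.0276%) higher and 0 lower in water deprivation than in control. It called 0 between water and food deprivation, where 2174 had an unadjusted p under 0.05 and Bpifa1 had an adjusted p = 0.236.

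Bpifa1 is dim, and its position was set against probe sets of the same level. Its mean over the 10 arrays without water deprivation was 5.29 on the log2 scale, above the filter at 5.11, so it would have been tested without its water-deprived values. Within 0.25 log2 units of that mean, which corresponds to signals of 16.9 to 30.6, there were 3555 tested probe sets. Their median log2 difference between water deprivation and control was 0.05, and the central 95% of them lay between -0.37 and 0.45. Bpifa1 at 1.01 was exceeded by 2 of them, Bdnf at 1.85 and a probe set without a gene symbol at 1.05. Those 2 probe sets varied more, with within-group SDs of 0.69 and 1.00 log2 units, against 0.19 for Bpifa1. The median within-group SD in this window was 0.26, and that of Bpifa1 was at the 13.9th percentile. Ccl2, a chemokine that attracts monocytes, followed at 0.93 (SE 0.21), and Bcl11b, a transcription factor gene, at 0.89. Bcl11b was high in a single water-deprived array, at 484 against a group median of 22.8, and its mean log2 of 5.09 over the other 10 arrays is below the filter. In all, 118 probe sets of the window were tested only through their water-deprived values, and the other 3437 had a median of 0.04 and a central 95% from -0.37 to 0.44. No probe set in the window was lower by as much as Bpifa1 was higher. The constant added before log2 leaves signals of this level little room to fall, so that absence says little about the Bpifa1 rise. In the window, 20 of the 3555 probe sets (0.563%) had all 5 water-deprived arrays above the 5 controls. Since the gene was chosen on this contrast, these ranks carry no test.

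**Figure D2:**
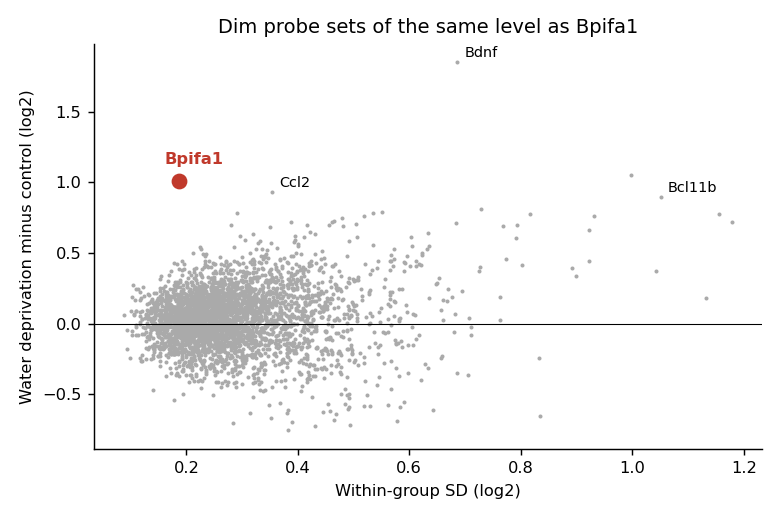
Log2 difference between water deprivation and control (vertical axis) against the within-group SD on the log2 scale (horizontal axis) for the 3555 tested probe sets whose level outside water deprivation is within 0.25 log2 units of Bpifa1, 1 grey point per probe set. Bpifa1 (red, 1.01 with an SD of 0.19) lies above the cloud at small SD, while Bdnf (1.85) and Bcl11b (0.89) lie at large SD.

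The genes next to Bpifa1 in mean level over all arrays had log2 differences from control in water deprivation of -0.17 to 0.30. Ankrd16, Tsku and Tff3 lay just above it and differed from control by 0.13, -0.17 and 0.19 in water deprivation on the log2 scale. Zmat4, Mybpc3 and Piezo1 lay just below it, at 0.30, -0.08 and -0.01. None of the 6 passed the adjusted limma test in that comparison, in which 1 of the 21729 tested probe sets did. That probe set was Bpifa1 itself, so no neighbour could have passed. At the filter itself, Gdf15, Gip and Zfp322a were just inside and Dpp4, Lsmem2 and Mrln just outside and untested.

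How low the control level of Bpifa1 is can be read from probe sets for genes of other organs. Of 24 such genes, the mean signal over the 10 arrays without water deprivation had a median of 5.79 and a range of 0.674 to 62.0, and Bpifa1 averaged 23.5 there. It was exceeded by 5 of the 24, the highest of them Krt10, a keratin of skin, Alb, the serum albumin of liver, and Ins1, an insulin gene of the pancreas. In the water-deprived arrays 1 of the 24 exceeded Bpifa1. The 27 bacterial control probe sets averaged 0.655 to 9.77, and 1 of them reached the lowest Bpifa1 value on any array, with a highest value of 17.0. A detection call was not used here, so whether the control signal of Bpifa1 stands above its own background was not tested.

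In 12 probe sets (0.0552% of those tested) all 5 water-deprived arrays lay above all 10 others, and in 10 (0.046%) all lay below. These genes were singled out after their values were seen. Bpifa1 had the widest gap of the 12, 0.43 log2 units between the lowest water-deprived and the highest other array. Next came Deptor, an inhibitor of mTOR, with 0.12. Ccl2 and Gsto1, a glutathione transferase, had gaps of 0.088 and 0.087, and Plk2, a kinase gene that responds to neuronal activity, 0.082. Insig2, a regulator of sterol synthesis, had 0.072, Sctr, the secretin receptor gene, 0.044, and Grp, which encodes gastrin-releasing peptide, 0.032. Cul1, a ubiquitin ligase scaffold, had 0.031, Crem, a cAMP-responsive transcription factor gene, 0.014, Vcf2 0.0064 and the neurotrophin gene Bdnf 0.0048. Another probe set of Bdnf was at a log2 difference of 0.36 from control, against 1.85 for the one that separated. For Vcf2 another was at 0.15, against 0.34, and at -0.08 from food deprivation. Without the water-deprived arrays 11 of the 12 would reach the filter. Grp, with a mean log2 of 4.86 over the other 10 arrays, would not, so it was tested only through the group where it is high.

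After Bpifa1, the genes with the smallest p among those higher in water deprivation were Deptor (log2 0.51, SE 0.09), Plk2 (0.76, SE 0.15), Bdnf (1.85, SE 0.38), Spry4 (0.47, SE 0.11), which encodes an inhibitor of receptor tyrosine kinase signalling, and Fip1l1 (0.45, SE 0.10), a factor of mRNA polyadenylation. None passed, with limma adjusted p values of 0.199 for Deptor, 0.372 for Plk2 and 0.386 for each of the other 3. Each had a smaller difference relative to its SE than Bpifa1. These genes were taken in order of p after the only probe set called. Their lack of a call and their smaller ratios were therefore fixed by that choice.

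The rest of the BPI fold family gave no call in water deprivation, where 0.0046% of all tested probe sets were called against control and 0.152% against food deprivation. Bpifa1 was the only call against control, so no other member could pass there. Counted by gene, as the family is, 11 of 11510 were higher and 0 lower against food deprivation. Of 17 family genes listed, 16 were found in the RefSeq gene table, 15 of them on chromosome 3 with Bpifa1, and 10 have a probe set on the array. Only Bpifa1, Bpifa5, Lbp and Pltp reached the filter, and by limma 1 of these 4, Bpifa1 itself, passed in water deprivation against control. Apart from Bpifa1, which was chosen for its p in that comparison, Bpifa5 alone of the 4 had an unadjusted p under 0.05. Of all genes 6.59% had such a p. In GRCr8 the gene order around Bpifa1 is Bpifb3, Bpifb4, Bpifa6, Bpifa2, Bpifa2f, Bpifa3, Bpifa1, Bpifa5, Bpifb1, Bpifb5 and Cdk5rap1.

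Bpifa5, the next gene on the chromosome, had a level of the same order and no such separation. Its signal ranged from 37.8 to 55.9 in water-deprived arrays (median 46.9), from 40.4 to 64.5 in food-deprived arrays (43.6) and from 25.4 to 41.5 in controls (39.1). Its log2 difference was 0.28 (SE 0.13, limma adjusted p = 0.752) for water deprivation minus control, -0.04 for water minus food deprivation and 0.31 (adjusted p = 0.132) for food deprivation minus control. All 3 groups of Bpifa5 overlapped, with 4 of the 5 water-deprived and 4 of the 5 food-deprived arrays above the highest control.

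The other secreted short and long family members had low medians in every group. Bpifa2, a salivary protein gene, ranged from 8.9 to 19.1 in water-deprived, 10.5 to 21.9 in food-deprived and 4.1 to 18.4 in control arrays. Bpifb1, which airway epithelium secretes together with Bpifa1, had medians of 2.6, 2.5 and 2.3 in the same order, with a single water-deprived array at 12.7. Bpifa2f had medians of 2.6, 3.3 and 2.0, Bpifb2 of 11.1, 10.5 and 6.4, Bpifb4 of 13.1, 10.6 and 10.0, and Bpifb6 of 11.5, 6.4 and 10.8. Single Bpifb6 values reached 38.7 in water-deprived array 2 and 23.4 in food-deprived array 1. Every one of these 6 was below the filter and has no test. Cdk5rap1, past the end of the cluster, averaged 5.94 in water-deprived, 10.5 in food-deprived and 6.87 in control arrays and was not tested either.

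The plasma members of the family also overlapped between groups. Lbp, the lipopolysaccharide-binding protein gene, ranged from 5.5 to 94.0 in water-deprived, 32.1 to 60.9 in food-deprived and 12.2 to 79.2 in control arrays, with a log2 difference of -0.25 (SE 0.39) from control in water deprivation. Pltp, the phospholipid transfer protein gene, was the brightest of the family, at 355 to 814, 300 to 730 and 391.8 to 936 in the same order of groups. Its difference was -0.01 (SE 0.27, limma adjusted p = 0.996).

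**Figure D3:**
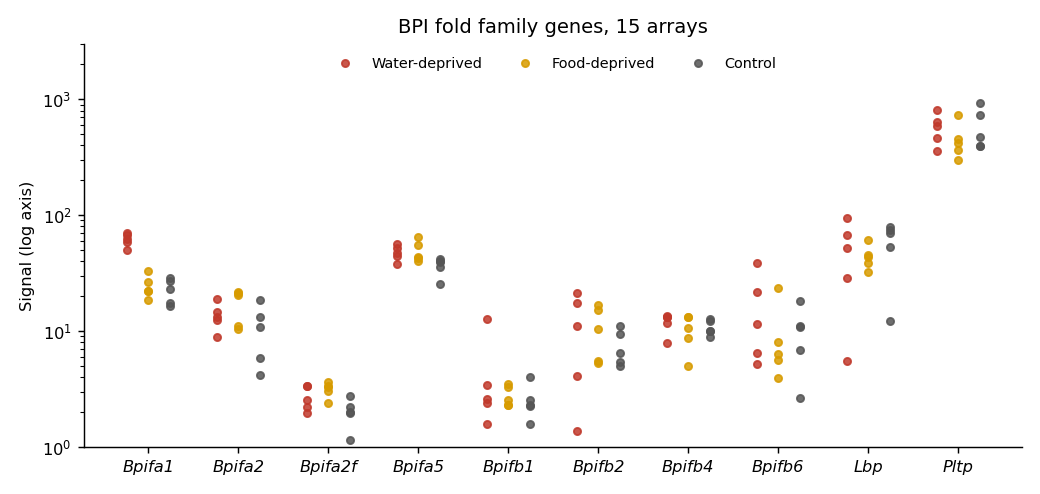
Signal of the 10 BPI fold family genes with a probe set (log axis), 1 point per array, with water-deprived, food-deprived and control arrays side by side for each gene. Bpifa1 is the family gene whose 5 water-deprived arrays all lie above the 10 others, and 6 of the genes lie below the filter.

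The genes of ENaC and its regulators, which link the protein to sodium transport in the airway, showed no call with water deprivation. Over all tested probe sets 0.0046% were called against control and 0.152% against food deprivation. The only call against control was Bpifa1, so no gene of this list could pass there. Counted by gene, as the list is, 11 of 11510 were higher and 0 lower against food deprivation. Of 22 listed, 20 have a probe set and 16 reached the filter. By limma 0 passed in water deprivation against control and 0 against food deprivation, with 0 and 6 of the 16 at an unadjusted p under 0.05. Over all genes tested 6.59% had such a p in water deprivation against control, 12.5% in water against food deprivation and 21.3% in food deprivation against control. The list had median log2 differences of 0.05 and 0.07, beside -0.00 and -0.02 for all genes tested. Among the subunit genes, Scnn1a averaged a signal of 28.2 in water-deprived, 28.3 in food-deprived and 20.7 in control arrays, Scnn1b 38.3, 53.3 and 34.3, and Scnn1g 40.6, 36.9 and 42.8. Their log2 differences between water deprivation and control were 0.28, 0.10 and -0.05, and a second probe set of Scnn1g, which reached the filter only through its water-deprived values, gave 0.54 (SE 0.19, adjusted p = 0.719). Of the 3 brightest regulators, Sgk1, a kinase that raises ENaC at the cell surface, was at 0.36, the protease inhibitor gene Spint2 at 0.42 and the ubiquitin ligase gene Nedd4 at -0.25.

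Between food deprivation and control, where 4.77% of all tested probe sets were higher and 3.76% lower (8.53% in either direction), 1 of the 16 rose and 1 fell. Counted by gene, as the list is, 359 of the 11510 tested were higher and 301 lower. Scnn1b rose (log2 0.46, SE 0.13, limma adjusted p = 0.0403). Nedd4 fell by its brightest probe set (-0.74, SE 0.13, adjusted p = 0.00497), while 2 other probe sets of Nedd4 rose, by 1.40 and 1.08, and 2 more were at 0.27 and -0.10. Nedd4l, another ubiquitin ligase gene of the list, was at -0.10 (SE 0.14) and was not called. With the array set as a term 0 of the 16 passed by limma in that comparison. All food-deprived arrays have a high and all controls a low 5′/3′ ratio, so group and array set cannot be told apart here. Bpifa1 differed by 0.07 in this comparison.

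Markers of airway and nasal secretory epithelium, the tissue best known for Bpifa1, gave no call. Over all tested probe sets 0.0046% were called in water deprivation against control, 0.152% in water against food deprivation and 8.53% in food deprivation against control. The first share is Bpifa1 alone, so no marker could pass there. Counted by gene, 11 of 11510 were higher and 0 lower in water against food deprivation. In food deprivation against control 359 genes were higher and 301 lower. Of 26 listed, 24 have a probe set and 7 reached the filter, and 0 of the 7 passed by limma in any comparison, with 0 at an unadjusted p under 0.05 for water deprivation against control, 2 for water against food deprivation and 1 for food deprivation against control. The shares of all genes at such a p were 6.59%, 12.5% and 21.3% in the same order. The 7 markers had a median difference from control in water deprivation of 0.12. The 3 brightest were the keratins Krt18 (0.33) and Krt8 (0.23) and the mucin gene Muc1 (0.07). Muc5b, a mucin gene of airway glands, was tested and averaged 33.4 in water-deprived, 43.7 in food-deprived and 34.1 in control arrays, with log2 differences of -0.03 for water deprivation minus control and -0.27 (limma adjusted p = 0.274) for water minus food deprivation. Other secretory genes were below the filter, with means in water-deprived, food-deprived and control arrays of 17.2, 23.9 and 15.2 for Scgb1a1, the club cell secretoglobin. The same means were 2.34, 2.12 and 1.66 for Scgb3a1 and 1.05, 4.94 and 1.87 for Muc5ac, the airway mucin gene. The summed signal of the list was 387 to 1489 in water-deprived, 553 to 1003 in food-deprived and 456 to 1438 in control arrays. The water-deprived array with the lowest sum, 387, was array 3, which had the highest Bpifa1 signal. In each group the arrays with the lowest and the highest sum were also those of the choroid plexus markers described below. The sum is therefore not a separate gauge of airway tissue. The part of airway or nasal tissue in the Bpifa1 difference was not tested.

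Mucosal defence proteins, which share the antibacterial role of Bpifa1, also gave no call, beside the same shares of calls over all tested probe sets. In water deprivation against control none could, since Bpifa1 was the only call. Of 25 listed, 21 have a probe set, 7 reached the filter, and 0 of the 7 passed by limma in any comparison, with 2 at an unadjusted p under 0.05 for water deprivation against control, 1 for water against food deprivation and 0 for food deprivation against control. The shares over all genes were 6.59%, 12.5% and 21.3% in the same order. Lyz2, a lysozyme, was at 0.45, Chi3l1, a chitinase-like protein gene, at -0.43 and the complement gene C3 at -0.70 (adjusted p = 0.523). The median of the 7 was 0.15. Their summed signal, over all members with a probe set, was 1878 to 2291 in water-deprived, 1747 to 2183 in food-deprived and 1202 to 2424 in control arrays, so the groups overlapped.

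Choroid plexus lies next to the subfornical organ and its secretory epithelium can enter a dissection. Its 17 tested markers had a median log2 difference of 0.47 between water deprivation and control, or -0.07 with the array set as a term, and 0 passed by limma, with 0 at an unadjusted p under 0.05. Summed choroid plexus signal was 28597, 39427, 5203, 20054 and 25551 in water-deprived arrays 1 to 5, against 14149 to 30570 in food-deprived and 7126 to 32093 in control arrays. Water-deprived array 3 had the lowest sum of all 15 arrays, the lowest 5′/3′ ratio (-2.81) and the highest Bpifa1 signal. All 17 markers lay above control in water deprivation, and 15 of the 17 did in food deprivation. Their median for food deprivation minus control was 0.49, or -0.92 with the array set as a term. For water minus food deprivation it was -0.05, or 0.86 with that term. The part of choroid plexus in the Bpifa1 difference was not tested. Markers of ependyma, neurons, astrocytes, oligodendrocytes, microglia and endothelium gave 0 calls by limma in water deprivation against control, where 0.0046% of all tested probe sets were called. The only probe set called was Bpifa1, so no marker of any list, choroid plexus included, could pass. These lists had median differences of -0.03, -0.01, -0.15, -0.23, -0.41 and 0.05 in the same order. All 8 tested microglia markers lay below control, 5 of them at an unadjusted p under 0.05, against 6.59% of all genes. The other 5 lists had 0 at that p. The neuronal gene Snap25 was at 1566 to 2624 in water-deprived, 1605 to 2379 in food-deprived and 1063 to 2316 in control arrays.

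The genes whose pattern over the 15 arrays was most like that of Bpifa1 were found by Pearson correlation of log2 values over 11389 genes. The points are arrays of 3 groups, so a shared group difference is enough to raise r, and the values are a description. The highest were Crem (r = 0.86), Insig2 (0.85), Ccl2 (0.83), Plk2 (0.82) and Grp (0.81), and these were the only 5 genes above 0.8, with a median over all genes of -0.03. Their log2 differences between water deprivation and control were 0.46, 0.26, 0.93, 0.76 and 0.72, and between water and food deprivation 0.44, 0.25, 0.84, 0.58 and 1.09. After subtracting group means their correlations with Bpifa1 were 0.28, 0.12, 0.38, 0.28 and 0.37. All 5 correlations were lower once the group levels were removed. Other probe sets of these genes gave r of 0.03 to 0.74 for Crem, of which 4 of 5 were at 0.29 or less, and 0.08 for Insig2, whose second probe set was at -0.18 between water and food deprivation.

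At the other end were Gbp2, an interferon-induced GTPase gene (r = -0.92), C3 (-0.83), the cyclin gene Ccnd1 (-0.83), Greb1 (-0.79) and Aplnr, the apelin receptor gene (-0.79). Gbp2 had signals of 53.3 to 76.8 in water-deprived, 85.3 to 107 in food-deprived and 70.1 to 119 in control arrays, and its correlation after subtracting group means was -0.73. Ccnd1 was at 169 to 190, 222 to 252 and 204 to 251 in the same order of groups, and its correlation after subtracting group means was 0.21. Other probe sets gave r of -0.57 and -0.52 for Ccnd1. Those of Greb1 (-0.38) and Aplnr (0.08) were below the filter. These 10 genes were chosen through their likeness to Bpifa1, so their differences carry no test. Of the 10, 9 would reach the filter without the water-deprived arrays, and Grp would not. A different set stood highest after subtracting group means, namely Nhlrc3 (0.75), Zbtb43, Mpv17l2, Rfxank and F8 (0.72 each), whose r over the 15 arrays was 0.15 to 0.36. None of the first 5 was among these.

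**Figure D4:**
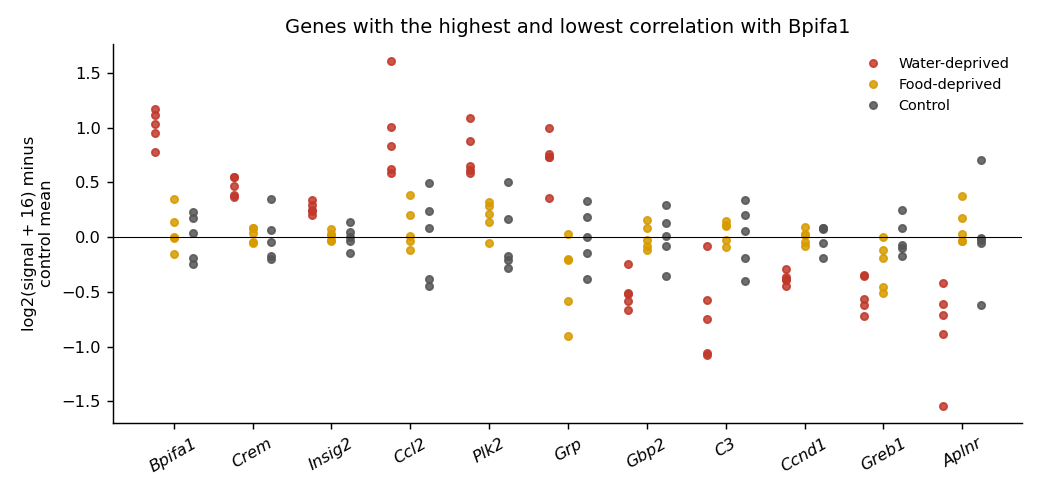
Log2 value minus the control mean for Bpifa1 and for the 5 genes with the highest and the 5 with the lowest Pearson r to it over 15 arrays, 1 point per array, with water-deprived, food-deprived and control arrays side by side for each gene. The water-deprived points of Bpifa1 lie 0.78 to 1.17 above the control mean, and those of Gbp2 all lie below it.

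The difference of Bpifa1 was above 0 under every processing tried, while its size followed the constant added before log2. Every water-deprived array lay above every other array, so leaving out an array or changing the constant could not reverse it. Several settings also return the same difference by construction, so the settings are not separate support. Over 26 alternative settings water deprivation minus control ranged from 0.54 with a constant of 64 to 1.43 with a constant of 1, and it was above 0 in all 26. The limma adjusted p, which chose the gene and so carries no test here, was below 0.05 in 20 of them. It was not when water-deprived array 2 (0.99, adjusted p = 0.0637), control array 3 (0.96, 0.0737) or control array 4 (0.95, 0.0618) was left out, nor in 3 further settings (adjusted p = 0.149 to 0.307). With the filter at the 50th percentile Bpifa1 is not tested. Water minus food deprivation was above 0 in all 26 alternatives, from 0.51 to 1.32. Its limma adjusted p was below 0.05 in 17 of them and not in the other 9, where it reached 0.236. This count carries no test either, as the comparison uses the same water-deprived arrays.

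**Figure D5:**
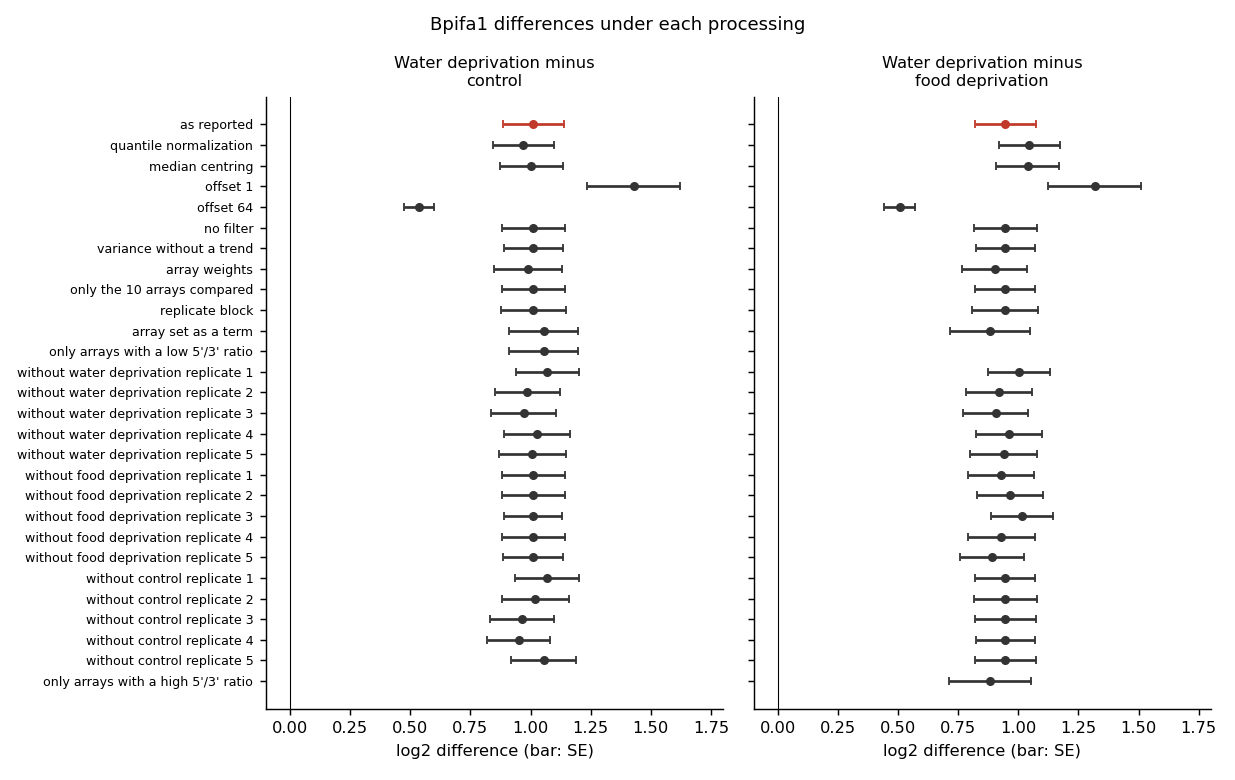
Log2 difference of Bpifa1 with its SE (horizontal axis) under each processing setting (vertical axis), for water deprivation minus control and water minus food deprivation. All values lie above 0, from 0.51 to 1.43.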

How the data were processed

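Arrays of 15 pooled samples, 5 per group, were analysed as deposited. The authors' deposited values are signal intensities per probe set on a linear scale. GCOS 1.2 is named in the submitters' processing notes, without its role. Each array has a trimmed mean of 100 (2% trimmed at each end). Probe names come from the platform annotation, which gives 1 symbol to 20826 probe sets, several to 436 and none to 9780, and 57 are controls. Of the first, 20758 are in the RefSeq gene table. Signals were taken as log2(signal + 16). Probe sets above the 30th percentile of mean level were tested, 21729 in 11510 genes. limma 3.58.1 in R 4.3.3 fitted the 3 groups together with a variance trend (12 residual degrees of freedom), two-sided, with Benjamini-Hochberg adjustment over all tested probe sets and a threshold of 0.05. A gene is represented by its brightest probe set. The fit was tested on simulated data.

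Named genes were Bpifa1, the BPI fold family and the 3 ENaC subunits. Added were, per other list, up to 4 members that passed and the 3 brightest, the 5 most and 5 least correlated genes, the level neighbours, the 5 next smallest p and the 3 brightest genes of other organs. The members and lists were chosen with earlier results of these data known. Alternatives changed the scaling, constant, filter, variance model, arrays used, replicate block and array set. The replicate numbers were not taken to pair the samples, as the labels state no pairing. Arrays give no counts, so precision is set by the 5 arrays of each group.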

Additional observations from a re-analysis of the deposited data

Results flagged for a closer look

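Each group of 5 arrays was examined for a single array far from the rest (Dixon's ratio above 0.71) in 77 named genes, 231 groups in all. There were 12 such arrays, and chance gives about 1 in 20 groups. No group of Bpifa1 was among them.

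In the BPI fold family, Bpifb1 was at 12.7 in water-deprived array 3 (nearest array of its group 3.44), Bpifb6 at 23.4 in food-deprived array 1 (8.0), and Lbp at 12.2 in control array 2 (53.2). The ENaC regulator Sgk1 was at 421 in water-deprived array 3 (947). Among level and filter neighbours, Zmat4 was at 78.7 in water-deprived array 3 (37.2) and 49.7 in control array 2 (27.4), and Tff3 at 11.9 in control array 2 (28.9). Mrln was at 4.07 in water-deprived array 5 (14.5) and 29.6 in food-deprived array 5 (25.5). Of the genes correlated with Bpifa1 within groups, Rfxank was at 7.80 in water-deprived array 1 (26.0) and Mpv17l2 at 181 in food-deprived array 3 (157). Ins1 was at 97.7 in food-deprived array 2 (37.8). Water-deprived array 3 had the highest Bpifa1 signal of all arrays, 70.4.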

How the results depend on the processing

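Bpifa1 in water deprivation minus control was 1.43 with a constant of 1 and 0.54 with 64, and 0.95 to 1.07 with 1 array left out. Against food deprivation it was 1.32 and 0.51, and 0.89 to 1.02. Food deprivation minus control was -0.08 after quantile normalization, -0.04 after median centring and -0.0046 to 0.12 with 1 array left out. The adjusted limma p for water deprivation against control was 0.149 in a fit of only the 10 arrays compared (0 probe sets called, 901 at an unadjusted p under 0.05), 0.202 with a replicate block and 0.307 in the 8 low-ratio arrays alone (1.05, SE 0.14). Against food deprivation it was 0.236 with the array set as a term, 0.0627 in the 7 high-ratio arrays alone, 0.0633 in the 10 arrays compared, and 0.0545 to 0.103 without water-deprived array 3, 4 or 5 or food-deprived array 1, 2 or 4. With the array set as a term and 1 array left out, which was chosen after seeing the data, the differences were 0.99 to 1.11, 0.72 to 1.05 and 0.0054 to 0.34 for the 3 comparisons, the 0.72 and 0.34 without water-deprived array 2.

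The count of probe sets called by limma between water deprivation and control (1 as reported) was 3 with no filter, 0 with the filter at the 50th percentile (1016 at an unadjusted p under 0.05), 2 with array weights, 6 with the array set as a term, 0 in the low-ratio arrays alone (782) and 0 to 2 with 1 array left out. Between water and food deprivation (33) it was 107 after quantile normalization, 99 after median centring, 71 with the filter at the 50th percentile, 2744 with array weights, 0 in the 10 arrays compared (3304), 0 with the array set (2174), 82 in the high-ratio arrays alone and 0 to 771 with 1 array left out. Between food deprivation and control (1854, 1037 higher and 817 lower) the split was 813 and 972 after quantile normalization and 652 and 1179 after median centring. The count was 1119 with the 50th percentile filter, 5840 with array weights, 4183 in the 10 arrays, 0 with the array set (1879) and 807 to 2854 with 1 array left out. Of the family, 0 members were called between water and food deprivation with the array set (1 as reported). Of ENaC genes between food deprivation and control, 1 was called with no filter and 0 with the array set (2 as reported). Of the 5 genes most like Bpifa1, 0 were shared after subtracting group means and 2 with Spearman correlation. The causes were not tested.

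The replicate numbers in the labels are shared by the groups, but the correlation of same-numbered deviations ran from -0.36 to 0.37, with 1 of 5 pairs above 0.1 in each comparison. With the number as a replicate block, limma called 0 probe sets in water deprivation against control (1248 at an unadjusted p under 0.05) and 20 against food deprivation. Without detection calls, how far signals near that of control Bpifa1 stand above background is not known.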
